A study of Homo sapiens with 6 samples.

Results

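The Hippo pathway ends in a pair of related transcriptional coactivators, YAP (gene YAP1) and TAZ (gene WWTR1), which do not bind DNA themselves and act through the TEAD transcription factors. The kinases LATS1 and LATS2 phosphorylate YAP and TAZ and keep them out of the nucleus, and VGLL cofactors compete with or complement them on the TEAD proteins. The pathway restrains growth in epithelia, and its coactivators are frequently active in ovarian cancer. The 10 genes described here are YAP1, WWTR1, TEAD1 to TEAD4, VGLL1, VGLL4, LATS1 and LATS2, chosen as regulators of the pathway's output and not as its targets. They were found by matching the identifiers of the 60649 rows of the count table, without version, to these symbols in GENCODE release 44, and all 10 were present and tested.

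The cells were OVCAR5, an established human ovarian cancer line of epithelial type. In 3 libraries the cells stably carried a lentiviral METTL3 construct, and in 3 control libraries they carried the empty pCDH vector, made in parallel. Cells of both groups had been infected and selected with puromycin, and no drug treatment is named for them. METTL3 is the catalytic subunit of the enzyme that writes N6-methyladenosine (m6A) on mRNA, and the comparison asked which transcripts differ when it is overexpressed. The labels give replicate numbers but do not say whether the replicates were separate cultures, so p-values measure the spread between these libraries, which may be technical. The series text describes the controls as parental, which differs from the treatment protocol. The labels name a stranded paired-end kit and the paper's methods an NEBNext kit with single-end reads.

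Total counts ranged from 96633925 to 125463386 per library. METTL3, which checks the labels, was at 152.4 to 175.3 CPM (a library's counts scaled to a common total) in the METTL3 libraries and at 68.6 to 80.6 CPM in the vector libraries. The groups were well apart, and the fitted difference was 1.16 on the log2 scale (SE 0.117), with an adjusted p of 0.072 in the quasi-likelihood test of edgeR. The 8 epithelial markers on the list summed to between 6322 and 9863 CPM in every library. Of 6 fibroblast, 5 immune and 4 endothelial markers, 10 stayed under 1 CPM in every library. LYZ (28.1 to 57.0 CPM), COL1A1 (8.04 to 18.1), CD14 (7.02 to 11.4) and PECAM1 (4.67 to 21.4) were above it in every library. PDGFRB (0.771 to 2.76 CPM) was above it in some. Replicate 1 of each group lay apart from replicates 2 and 3 (chi-square per degree of freedom from 112 to 250 against 12.6 and 13.1 between replicates 2 and 3), so the results for the 10 genes are given with all libraries and for replicates 2 and 3.

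TEAD proteins recognise the core sequence GGAATG, which reads CATTCC on the other strand. Promoter windows from RefSeq (GRCh38.p14, 250 bases before to 50 bases after a gene's start) were at hand for 8 of the 10 genes, in 15 windows, and not for TEAD1 and TEAD4. The core was found, on either strand, in windows of 3 of these 8 genes. Counted by window, 3 of 15 (20%) held it, against 14% of all 35116 windows. Among all 27305 genes with a window 16.7% held it, but these have fewer windows per gene than the 8 genes do. The 3 matches are shown because these genes encode a partner of the TEAD proteins (YAP1), another TEAD partner (VGLL1) and a kinase that restrains YAP and TAZ (LATS2). The capitals mark the core, and each stretch is written 5′ to 3′ on the gene's own strand.
YAP1, chr11:102110273-102110302, plus strand: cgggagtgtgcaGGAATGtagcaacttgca
VGLL1, chrX:136532046-136532075, plus strand: taccatgttcctCATTCCtgcaggtgccca
LATS2, chr13:21061560-21061589, minus strand: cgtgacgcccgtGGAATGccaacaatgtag
In YAP1 and VGLL1 the core began 162 and 157 bases before the gene's start, and in LATS2 it began at base 10 of the transcript. A match is a stretch of letters, and binding was not measured in these libraries.

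The METTL3 enzyme acts within short motifs of which GGACT, with U in place of T in the RNA, is the most typical. In the reference transcripts of GENCODE release 44 chosen as MANE Select, a median gene held 3 copies, or 0.924 per kilobase, and 88.5% of 19061 transcripts held at least 1. VGLL4 had the highest density of the 10 genes, with 7 copies in 3775 bases (1.85 per kilobase), all of them outside its coding sequence. LATS2 and LATS1 had 8 copies each, at 1.44 and 1.09 per kilobase, of which 6 and 3 lay in coding sequence. YAP1, TEAD1 and WWTR1 were below the median density, at 0.741, 0.743 and 0.794 per kilobase, and TEAD2 was just under it at 0.9195. VGLL1 was the member with no copy. Below are the last coding copies in the coactivators, in 2 TEAD genes and in both kinases, with the motif in capitals and the strand of the mRNA written as DNA.
YAP1: cagacagtGGACTaagcatga
WWTR1: actccggaGGACTtcctcagc
TEAD1: cttgtaaaGGACTga
TEAD2: ctggtcagGGACTga
LATS1: tttggttgGGACTcccaatta
LATS2: actggtggGGACTccaaacta
In TEAD1 and TEAD2 the motif ran into the stop codon tga, with 2 coding bases left after it. The annotated start codon also differed within the TEAD family, since TEAD2 began with ATG, TEAD1 with ATT, TEAD3 with ATA and TEAD4 with TTG. No m6A measurement belongs to these libraries, so the motif counts describe the transcripts only.

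Levels of different genes were compared as CPM per kilobase of annotated exon. YAP1 was the most abundant of the 10, at a mean of 33.4 ± 4.02 CPM per kilobase (SD, n = 6 libraries), above 93.7% of the 22038 genes tested. TEAD1, the most abundant of the DNA-binding partners, followed at 28.8 ± 4.50, and it was below YAP1 in all 6 libraries. TEAD4 was at 19.98 ± 3.60 and WWTR1 at 15.2 ± 4.39 CPM per kilobase, and TEAD4 was the higher in all 6 libraries. The coactivators and these 2 TEAD genes stood above LATS2 (10.5 ± 1.81), TEAD3 (9.73 ± 1.49) and LATS1 (4.89 ± 0.767). VGLL1 (3.92 ± 2.10), VGLL4 (3.88 ± 0.346) and TEAD2 (3.46 ± 0.502) were lowest, and their ranges overlapped, with VGLL1 above VGLL4 in only 2 of 6 libraries. With the longest transcript as the length the first 6 places by the mean were the same, though WWTR1 was then above TEAD4 in 2 of the 6 libraries, and VGLL4 moved from 9th to 7th place at 7.39 CPM per kilobase, because its annotated exons together span 7199 bases and its longest transcript 3775.

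**Figure D1:**
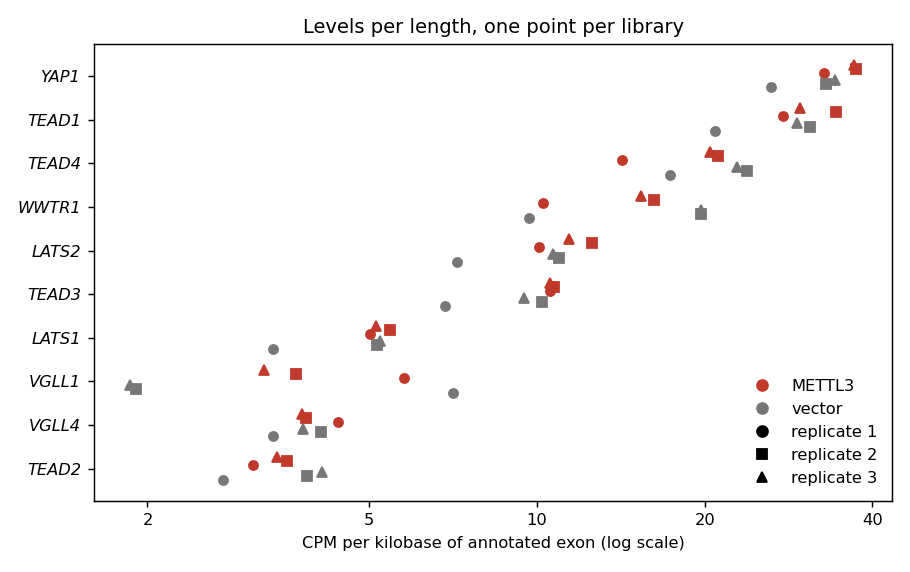
Level of each gene in CPM per kilobase of annotated exon (log scale), one point per library, with colour for the group and shape for the replicate number. YAP1 and TEAD1 lie highest, and VGLL1 has the widest spread, from 1.86 to 7.07.

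With METTL3 overexpression, none of the 10 genes passed the test on all 6 libraries. The fitted log2 fold change was above 0 for 7 genes (YAP1, TEAD1, TEAD3, VGLL1, VGLL4, LATS1 and LATS2) and below 0 for 3 (WWTR1, TEAD2 and TEAD4), where 47.3% of all genes tested were above 0. The median over the 10 genes was 0.18 on the log2 scale, against -0.018 over all genes. At an adjusted p-value under 0.05 edgeR called 0 of the 10, where it called 0 of all 22038 genes (0%). At an unadjusted p-value under 0.05 it called 0 of the 10 and 1830 of all genes (8.3%). DESeq2, the tool named in the methods, also called 0 of the 10, against 280 of all genes (1.27%). The paper, which used DESeq2 too, reported far more genes for this comparison, without saying whether all 6 libraries were used. VGLL1 is in its table of top genes, as higher with METTL3 and lower with both METTL3 shRNAs. The 6 libraries are bulk libraries, in which fewer cells with a transcript and less of it per cell cannot be told apart. All 10 genes had at least 304 counts in every library, so none rested on a low count.

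In replicates 2 and 3 of each group, WWTR1 was lower and VGLL1 higher with METTL3. edgeR called these 2 of the 10 there at an adjusted p under 0.05, where it called 15.2% of all genes (6.66% as higher and 8.59% as lower). At an unadjusted p under 0.05 it called 6 of the 10 and 27.1% of all genes. DESeq2 on the same 4 libraries called 3 of the 10 (WWTR1, VGLL1 and YAP1), against 14.7% of all genes. The median over the 10 genes was 0.058 there on the log2 scale, with 6 above 0 (49.4% of all genes) and 4 below. Each of these tests had 2 libraries a group. These libraries were picked because they lay close together in these same data. SEs, intervals and p-values from them therefore tend to be too small, wherever they are given. In the same libraries all 8 epithelial markers were called as higher with METTL3, and their part in these results was not tested.

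**Figure D2:**
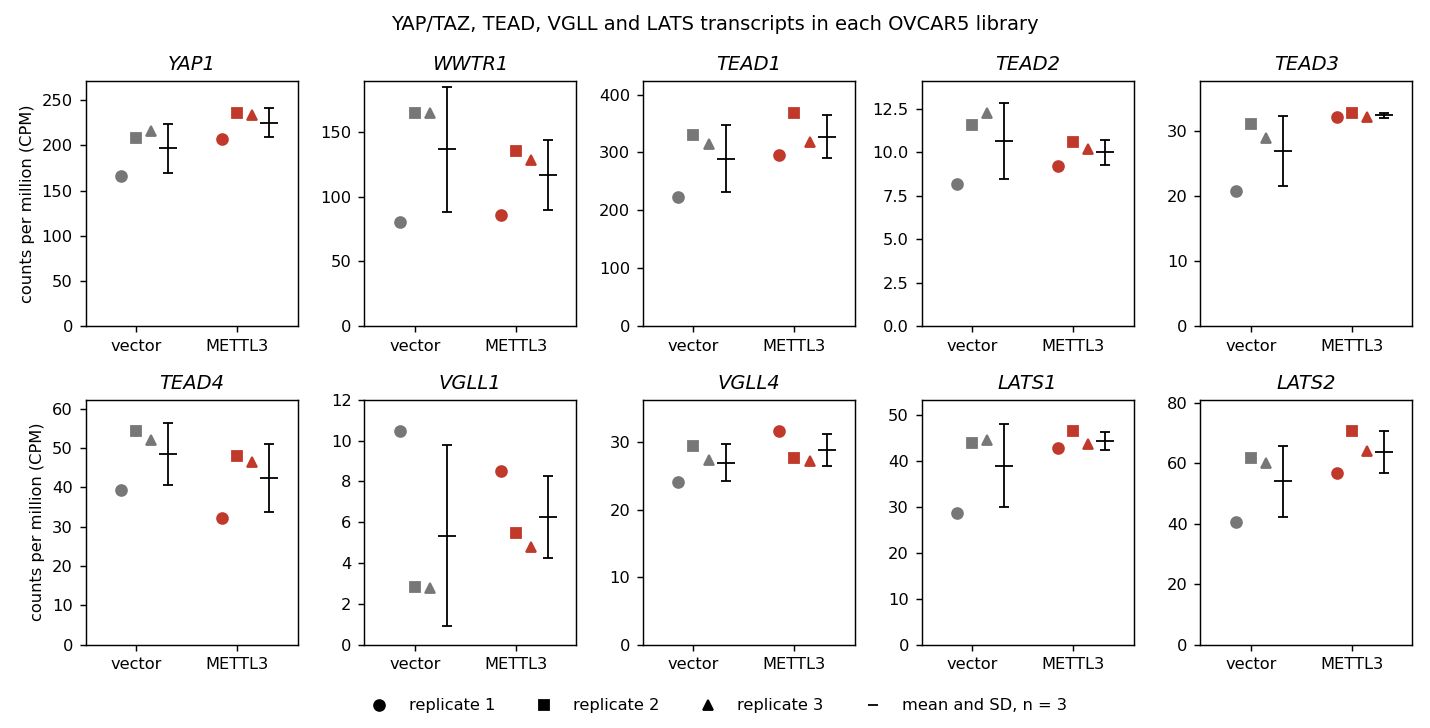
CPM of each gene by group, with the replicate number as the shape and the mean and SD (n = 3) as bars; each vertical axis starts at 0. TEAD3 alone has no overlap between groups, and vector replicate 1 (grey circle) is the lowest library for 8 of the 10 genes.

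YAP1 (ENSG00000137693.14, GRCh38 chromosome 11, 102110447 to 102233424, forward strand) encodes the main coactivator. It was at 206.7, 236.0 and 233.4 CPM with METTL3 and at 165.9, 208.5 and 216.0 CPM with the vector, in the order of replicates 1 to 3, which holds for every gene. Replicate 1 was the lowest library of each group, and METTL3 replicate 1 lay below vector replicates 2 and 3, so the groups overlapped. The means were 225 ± 16.2 and 197 ± 27.05 CPM (SD, n = 3 each), with a log2 fold change of 0.20 (95% interval -0.12 to 0.51, adjusted p = 0.684 from edgeR's test). In replicates 2 and 3 the log2 fold change was 0.14 (95% interval 0.033 to 0.25), with an adjusted p of 0.0802 from edgeR and 0.0396 from DESeq2. Within each replicate number the METTL3 library was the higher, by 0.32, 0.18 and 0.11 on the log2 scale for numbers 1, 2 and 3, a pattern that 19.6% of all genes shared. Exons of unnamed genes on the opposite strand cover 10.1% of YAP1's exonic bases, and none of those genes was above 2.10 CPM.

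WWTR1 (ENSG00000018408.15, chromosome 3, 149517235 to 149736714, reverse strand) encodes TAZ. Its level was 85.8, 135.5 and 128.4 CPM with METTL3 and 80.7, 164.4 and 164.7 CPM with the vector. Both replicate 1 libraries were far below the other 4, and among replicates 2 and 3 the METTL3 libraries were the lower. On all libraries the log2 fold change was -0.23 (95% interval -0.88 to 0.42, adjusted p = 0.822 from edgeR's test), an interval that reaches from well below 0 to well above it. In replicates 2 and 3 it was -0.32 (SE 0.0531, adjusted p = 0.000792 from edgeR and 3.89e-06 from DESeq2). Within replicate number 1 the difference had the opposite sign, at 0.087 on the log2 scale. Antisense exons of WWTR1-AS1 cover 9.05% of its exonic bases, and that gene was at no more than 0.805 CPM.

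The balance between the coactivators was read as the log2 ratio of YAP1 to WWTR1 in CPM per kilobase. It was 1.67, 1.21 and 1.27 in METTL3 replicates 1, 2 and 3 and 1.44, 0.75 and 0.80 in the vector replicates, so YAP1 was between 1.68 and 3.19 times as abundant as WWTR1. The ratio was higher with METTL3 within every replicate number, yet vector replicate 1 lay above METTL3 replicates 2 and 3. The means were 1.38 ± 0.254 and 1.00 ± 0.388 (SD, n = 3 each), a difference of 0.39 (exact permutation test, two-sided, p = 0.3, adjusted p = 0.6 over 4 such comparisons). Single libraries moved this difference, which was 0.24 without METTL3 replicate 1, 0.26 and 0.29 without vector replicates 2 and 3, 0.61 without vector replicate 1 and 0.46 in replicates 2 and 3.

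TEAD1 (ENSG00000187079.20, chromosome 11, 12674421 to 12944737, forward strand) was at 295.8, 368.3 and 317.5 CPM with METTL3 and at 223.3, 330.6 and 313.9 CPM with the vector. Vector replicate 1 was the lowest and METTL3 replicate 2 the highest, with the rest close together. Its log2 fold change was 0.18 (95% interval -0.21 to 0.57, adjusted p = 0.766 from edgeR's test) on all libraries and 0.088 (adjusted p = 0.451) in replicates 2 and 3.

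TEAD3 (ENSG00000007866.22, chromosome 6, 35473597 to 35497079, reverse strand) was the gene of the 10 whose groups did not overlap, where the groups of 17.4% of all genes did not (8.47% with METTL3 the higher). It was at 32.2, 32.8 and 32.2 CPM with METTL3 and at 20.8, 31.1 and 28.9 CPM with the vector. The METTL3 libraries were nearly equal, and the distance to vector replicate 2 was small. The log2 fold change was 0.26 (95% interval -0.097 to 0.63, adjusted p = 0.65 from edgeR's test), and in replicates 2 and 3 it was 0.11 (adjusted p = 0.285).

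TEAD4 (ENSG00000197905.10, chromosome 12, 2959330 to 3040676, forward strand) differed from TEAD1 and TEAD3 in the sign of every within-number difference. It was at 32.4, 48.1 and 46.5 CPM with METTL3 and at 39.5, 54.3 and 52.0 CPM with the vector. In each group replicate 1 was the lowest. Within replicate numbers 1, 2 and 3 the difference was -0.29, -0.17 and -0.16 on the log2 scale, and 20% of all genes were lower in all 3 numbers. The fitted log2 fold change was -0.20 (95% interval -0.62 to 0.23, adjusted p = 0.761 from edgeR's test) on all libraries and -0.17 (adjusted p = 0.0648) in replicates 2 and 3. TEAD2 (ENSG00000074219.14, chromosome 19, 49340595 to 49362457, reverse strand), the least abundant of the family, was at 9.21, 10.6 and 10.2 CPM with METTL3 and 8.16, 11.5 and 12.3 CPM with the vector. The METTL3 libraries lay inside the range of the vector libraries, and the log2 fold change was -0.092 (95% interval -0.50 to 0.32, adjusted p = 0.892 from edgeR's test). It was -0.20 (95% interval -0.38 to -0.015, adjusted p = 0.147 from edgeR's test) in replicates 2 and 3. Exons of CD37 on the opposite strand cover 10.7% of TEAD2's exonic bases, and CD37 was at 1.25 to 1.98 CPM.

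The TEAD proteins bind the same DNA core, so their shares of the family's summed CPM per kilobase were compared. TEAD1 held 49.8%, 49.3% and 46.3% in the METTL3 libraries and 43.7%, 44.9% and 44.6% in the vector libraries. The groups did not overlap, and the mean was 48.5 ± 1.89% with METTL3 against 44.4 ± 0.638% with the vector (SD, n = 3 each). The difference of 4.06 percentage points had p = 0.1 in the exact permutation test (two-sided), the smallest p that 3 libraries against 3 allow, and an adjusted p of 0.4 over 4 comparisons. The difference was 3.02 percentage points in replicates 2 and 3. The share of TEAD4 went from 34.7% to 36.3% in the vector libraries and from 25.6% to 31.9% in the METTL3 libraries. TEAD3 held 14.3% to 14.8% with the vector and 15.4% to 19.0% with METTL3, and TEAD2 held 5.63% to 6.25% and 5.09% to 5.57%. The shares sum to a whole, so a higher share of one gene lowers the others. Replicate 1, in which the shares of TEAD1, TEAD3 and TEAD4 lay farthest apart between groups, was the pair with the largest differences in CPM for TEAD1, TEAD3 and TEAD4 too.

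**Figure D3:**
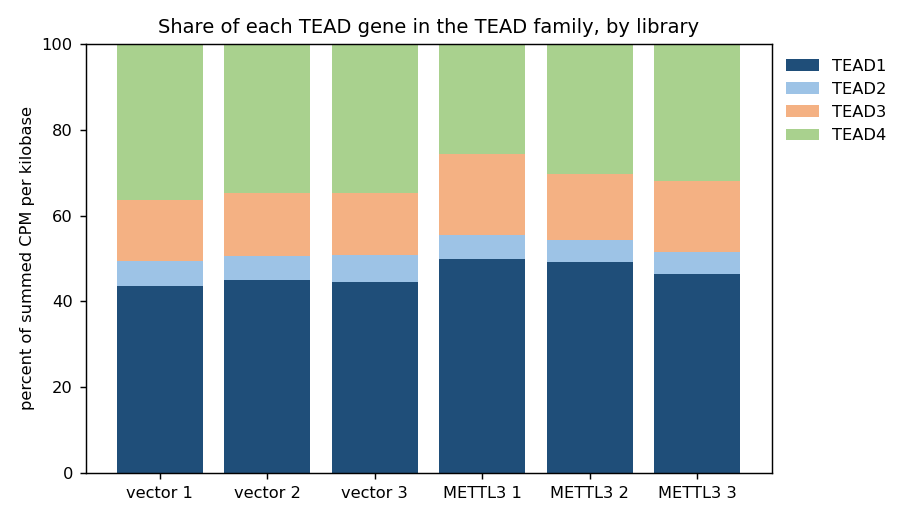
Share of TEAD1 to TEAD4 in the summed CPM per kilobase of the family, one bar per library. TEAD1 takes 43.7% to 44.9% in the vector libraries and 46.3% to 49.8% in the METTL3 libraries, and TEAD4 is the smaller in all METTL3 libraries.

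VGLL1 (ENSG00000102243.13, chromosome X, 136532215 to 136556807, forward strand), a cofactor that binds TEAD proteins through the same surface as YAP, varied most. It was at 8.52, 5.46 and 4.78 CPM with METTL3 and at 10.4, 2.82 and 2.75 CPM with the vector, a range of 3.80 times. The replicate 1 libraries were the highest of both groups, and vector replicate 1 was the highest of all. Among replicates 2 and 3 both METTL3 libraries lay above both vector libraries. On all libraries the log2 fold change was 0.23 (95% interval -0.94 to 1.40, adjusted p = 0.908 from edgeR's test). In replicates 2 and 3 it was 0.88 (SE 0.127, adjusted p = 0.00026 from edgeR and 1.66e-06 from DESeq2), the largest of the 10 genes there. Within replicate number 1 the difference was -0.29 on the log2 scale, against 0.95 and 0.80 for numbers 2 and 3. The paper lists VGLL1 at a log2 fold change of 0.88 with METTL3. That is near the value from replicates 2 and 3 and above the one from all libraries. The paper's values for METTL3, LYZ, PECAM1, CCN1 and CCN2 were also nearer those from replicates 2 and 3. The reason was not tested.

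VGLL4 (ENSG00000144560.15, chromosome 3, 11556069 to 11771350, reverse strand), which competes with YAP and TAZ for TEAD proteins, was the steadiest of the 10, with a highest level 1.31 times its lowest. It was at 31.6, 27.7 and 27.2 CPM with METTL3 and at 24.1, 29.5 and 27.3 CPM with the vector. METTL3 replicate 1 was the highest library and vector replicate 1 the lowest, with the other 4 between them. The log2 fold change was 0.095 (95% interval -0.19 to 0.39, adjusted p = 0.836 from edgeR's test), and in replicates 2 and 3 it was -0.051 (adjusted p = 0.688). Exons of other genes on the opposite strand, mainly ATG7 at 40.4 to 51.7 CPM, cover 23.8% of VGLL4's exonic bases. The strand setting of the counting is not given in the sources used here, so VGLL4's count over these bases may be too high or too low. The log2 ratio of VGLL4 to VGLL1 in CPM per kilobase was -0.39, 0.059 and 0.23 with METTL3 and -1.08, 1.10 and 1.03 with the vector. With annotated exons as the length, VGLL1 was thus the more abundant of the pair in both replicate 1 libraries. With the longest transcript as the length it was so in only 1 of the 6 libraries. The group means of the ratio differed by -0.39 (exact permutation test, two-sided, p = 0.6, adjusted p = 0.6 over 4 comparisons). This difference rested on single libraries, since it was -1.10 without vector replicate 1, -0.012 and -0.048 without vector replicates 2 and 3, -0.21 without METTL3 replicate 1 and -0.92 in replicates 2 and 3.

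LATS1 (ENSG00000131023.13, chromosome 6, 149658153 to 149718105, reverse strand) was at 42.6, 46.3 and 43.6 CPM with METTL3 and at 28.5, 43.8 and 44.5 CPM with the vector. Vector replicate 1 stood alone below the other 5 libraries, which lay close together. The log2 fold change was 0.18 (95% interval -0.21 to 0.58, adjusted p = 0.761 from edgeR's test) on all libraries and 0.027 (adjusted p = 0.828 from the same test) in replicates 2 and 3. Exons of an unnamed gene on the opposite strand cover 3.03% of LATS1's exonic bases, and that gene was at no more than 0.222 CPM. LATS2 (ENSG00000150457.9, chromosome 13, 20973036 to 21061586, reverse strand), which is also a transcriptional target of YAP and TAZ, was at 56.7, 70.4 and 64.1 CPM with METTL3 and at 40.4, 61.5 and 60.0 CPM with the vector. It was the higher in the METTL3 library of every replicate number, by 0.49, 0.19 and 0.095 on the log2 scale, though METTL3 replicate 1 lay below vector replicates 2 and 3. The fit gave 0.24 (95% interval -0.16 to 0.64, adjusted p = 0.696 from edgeR's test) on all libraries and 0.15 (adjusted p = 0.133) in replicates 2 and 3. The log2 ratio of LATS1 to LATS2 in CPM per kilobase stayed between -1.20 and -1.01 in all 6 libraries. Its means differed by -0.048 between the groups (exact permutation test, two-sided, p = 0.5, adjusted p = 0.6 over 4 comparisons), and by -0.0070 to -0.10 with 1 library left out and -0.12 in replicates 2 and 3. LATS2 was the more abundant kinase transcript throughout.

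**Figure D4:**
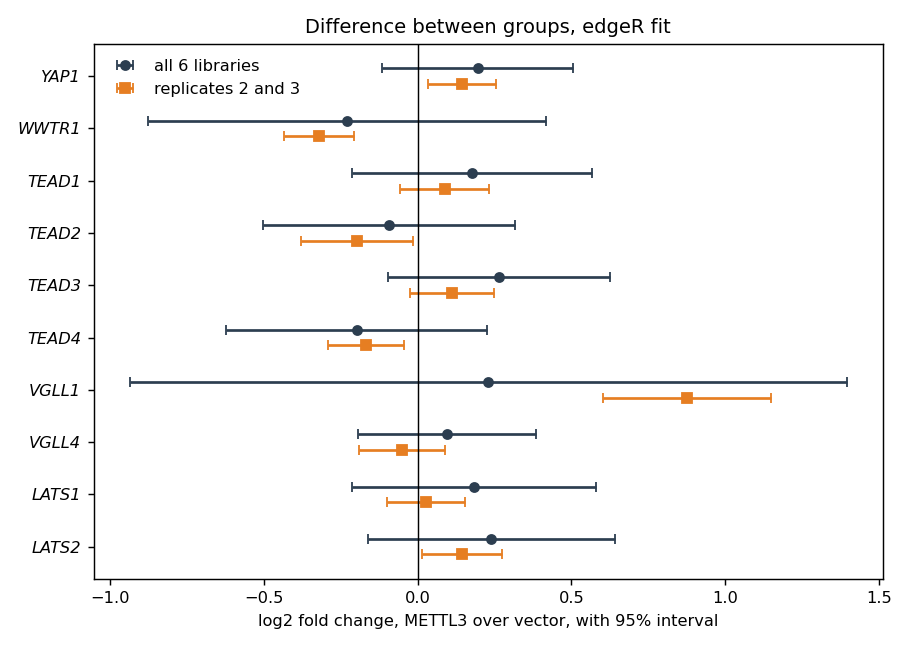
Log2 fold change of METTL3 over vector with its 95% interval from edgeR's fit, on all 6 libraries (circles) and on replicates 2 and 3 (squares). On all libraries every interval includes 0, and on replicates 2 and 3 the estimates of WWTR1 (-0.32) and VGLL1 (0.88) lie farthest from 0.

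The difference between libraries of the same replicate number was not even over the numbers. Within number 1 it was above 0 for 8 of the 10 genes, where 49.9% of all genes were, and within numbers 2 and 3 for 6 and 5 of them, where 49.2% and 49.4% were. For 7 of the 10 genes the largest difference was at number 1, as it was for 55.8% of all genes. Vector replicate 1 was the lowest of the 6 libraries for 8 of the 10 genes and for 24.7% of all genes. YAP1, TEAD1, TEAD3 and LATS2 were higher with METTL3 in all 3 numbers, and TEAD4 was lower in all 3.

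**Figure D5:**
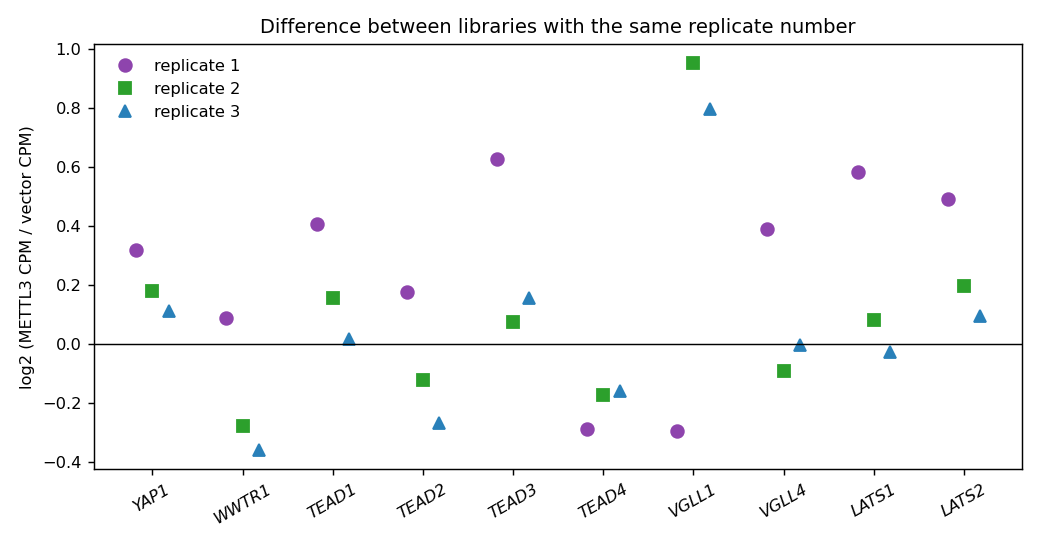
Log2 ratio of the METTL3 library's CPM to that of the vector library with the same replicate number, for each gene. Numbers 2 and 3 lie close together for most genes, and number 1 has the opposite sign from both for WWTR1 (0.087), TEAD2 (0.17), VGLL1 (-0.29) and VGLL4 (0.39).

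Replicate number was itself compared, since replicate 1 of both groups was known to stand apart. Replicate 1 was singled out from these same data, so intervals and p-values of its comparison with the others tend to be too small. With the group in the model, WWTR1 was lower in replicate 1 than in the other libraries (-0.82 on the log2 scale, 95% interval -1.09 to -0.55, adjusted p = 0.00953 from edgeR's test). TEAD4 was lower too (-0.49, adjusted p = 0.0195 from edgeR's test), and VGLL1 was higher (1.35, 95% interval 0.78 to 1.92, adjusted p = 0.0198 from edgeR's test). These 3 of the 10 genes were called, where 9.06% of all genes were (4.81% as lower and 4.25% as higher). The fitted difference was below 0 for 9 of the 10 and for 45.2% of all genes. LATS2 (-0.41, adjusted p = 0.0585), TEAD1 (-0.37, adjusted p = 0.0989), YAP1 (-0.27, adjusted p = 0.115), TEAD2 (-0.35, adjusted p = 0.117), LATS1 (-0.34, adjusted p = 0.151) and TEAD3 (-0.26, adjusted p = 0.24) did not pass edgeR's test, and VGLL4 was at -0.010. Replicates 2 and 3, compared with the rest in the same way, gave 0 calls over all genes, with 191 and 273 genes at an unadjusted p-value under 0.05. The replicate 1 libraries were part of the rest there, so their shift counted as noise and few genes could pass. The 0 calls therefore do not show that replicates 2 and 3 were alike. A joint test of the replicate numbers with edgeR called 0 of the 10 genes and 7 of all genes (0.0318%), with WWTR1 at an adjusted p of 0.141 and VGLL1 at 0.186. In simulated counts that test recovered 0% of genes changed by a fold of 2. DESeq2's likelihood ratio test called WWTR1 (adjusted p = 0.000427) and VGLL1 (adjusted p = 5.80e-05), where 5.13% of all genes were called, and these 2 were also called by edgeR's joint test with no minimum on counts, as were 3.44% of all genes. In the same simulation DESeq2's test recovered 49% of the changed genes, and 39.1% of its calls were unchanged genes. The simulated spread came from a fit of the group alone, so it held the shift of replicate 1 as independent noise. These shares therefore do not measure how well the tests find shared replicate differences in the real libraries.

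The rest of the pathway was followed in a list of 58 other Hippo genes, of which 57 were tested. On all 6 libraries 36 were above 0 (47.3% of all genes) and 21 below, with a median log2 fold change of 0.072. edgeR called 0 of them, and 6 had an unadjusted p-value under 0.05, where 8.3% of all genes did. DESeq2 called 3, all higher with METTL3 (VGLL3, WWC1 and WWC3), where it called 1.27% of all genes. VGLL3, another cofactor of the TEAD proteins, was at 8.11, 9.93 and 10.6 CPM with METTL3 and at 4.27, 5.27 and 5.55 CPM with the vector. Its groups were well apart, and its log2 fold change was 0.92 (SE 0.175), with an adjusted p of 0.34 in edgeR's test and 0.000612 in that of DESeq2. WWC1, which encodes the LATS activator KIBRA, was at 249.7 to 251.7 CPM with METTL3 and 146.0 to 188.4 CPM with the vector (log2 fold change 0.61, adjusted p = 0.344 from edgeR and 0.00198 from DESeq2). Its relative WWC3 was at 3.02 to 4.17 and 1.71 to 2.07 CPM (log2 fold change 0.91, adjusted p = 0.395 from edgeR and 0.00279 from DESeq2). FAT4, an atypical cadherin, and AJUBA, a LIM protein that binds LATS kinases, had the next smallest p-values, with log2 fold changes of 0.78 and 0.31 (adjusted p = 0.564 and 0.569 from edgeR's test), and of 0.33 and 0.17 in replicates 2 and 3 (adjusted p = 0.194 and 0.0528). In replicates 2 and 3, 6 of the list were called as higher (WWC1, WWC3, VGLL3, CRB3, YWHAH and SFN) and 6 as lower (FRMD6, TNIK, AMOT, WTIP, LLGL1 and YWHAQ), together 12 of 57 where 15.2% of all genes were called. VGLL2 had 0 counts in all 6 libraries, which allows a level of up to 0.0316 CPM in the smallest library, for counting error of independent counts only. If both mates of a pair were counted, this limit is higher.

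Of 22 commonly used YAP and TAZ target genes, 11 were above 0 and 11 below with METTL3 on all libraries. This list shares LATS2 with the 10 genes, and AMOTL2 and PTPN14 with the other Hippo genes, and all of these were above 0. edgeR called 0 of them, and DESeq2 called 1, F3, as higher, where it called 1.27% of all genes. On replicates 2 and 3 edgeR called 10 as lower and 4 as higher, where it called 8.59% and 6.66% of all genes. CCN1, CCN2 and ANKRD1 are the targets most often used as a readout. CCN2 was at 44.8, 98.0 and 99.9 CPM with METTL3 and at 32.1, 130.4 and 138.3 CPM with the vector, and CCN1 was at 120.0, 207.2 and 209.3 CPM and at 86.4, 258.9 and 258.6 CPM. Like WWTR1, both were lowest in the replicate 1 libraries and were called as lower with METTL3 in replicates 2 and 3 (log2 fold change -0.44 and -0.32, adjusted p = 6.51e-05 and 0.000552 from edgeR's test). ANKRD1 was called as higher there (0.55, adjusted p = 0.000183 from edgeR's test), as were F3, MYOF and TGFB2. Within replicate number 1, CCN1 and CCN2 were instead higher with METTL3. The paper's table of top genes lists CCN1 and CCN2 as lower with METTL3 and higher with both METTL3 shRNAs.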

How the data were processed

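RNA-seq libraries of OVCAR5 cells (3 with METTL3, 3 with the empty vector) were analysed. Per the paper and the submitters' processing notes, the authors trimmed reads with fastp, checked them with FastQC, used HISAT2 for alignment to hg38 and featureCounts (Subread) for the gene counts. Tool versions, the annotation release, the strand setting and the handling of multi-mapping reads are not given in the sources used here. The deposited values are raw counts, without normalization, in 60649 rows. Counts from 1 to 20 were even in 67.6% to 70.5% of cases per library, as when both mates of a pair are counted, so counting error is larger than the counts imply.

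Gene names, exon lengths and coordinates came from GENCODE release 44. In R 4.3.3, genes passing filterByExpr (22038) were scaled by TMM and tested with glmQLFit (robust) and glmQLFTest of edgeR 4.0.16, with Benjamini-Hochberg adjustment over all genes tested and a threshold of 0.05. The SE is the absolute log2 fold change divided by the square root of the F statistic, and CPM use the TMM factors. Levels between genes are CPM divided by the union of annotated exons in kilobases. As an alternative, DESeq2 1.42.0 was run, since the authors' methods name DESeq2. Simulated counts with 200 genes changed by a fold of 2 were used as a test: for the group comparison edgeR recovered 37% of them among 21583 genes (3.9% of calls were unchanged genes) and DESeq2 59.5% (17.9%). In the joint test of replicate number, among 21562 genes, edgeR recovered 0% and DESeq2 49% (39.1% of calls were unchanged genes). The dispersions of the simulated counts came from a fit of the group alone, so differences between replicate numbers were part of their noise.

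Deviations from the group means correlated at 0.357, 0.252 and 0.272 between libraries with the same number (1, 2 and 3), each over the minimum of 0.1. The unmatched METTL3 replicate 2 and vector replicate 3 correlated at 0.382. METTL3 replicate 3 and vector replicate 2 did so at 0.135, also over that minimum. The main tests and the permutation tests used no pairing. A shared number was used only for within-number differences, for the tests of replicate number and as a block in an alternative fit. No label states such a pairing, and it was read from the values alone. All 10 genes were named in the text, with METTL3, the 5 other Hippo genes with the smallest p-values, CCN1, CCN2 and ANKRD1. Other genes named were chosen after their values were seen. The members, lists, tests and alternatives were chosen with earlier results of these data known. Comparisons of DESeq2 on replicates 2 and 3 and of each replicate number against the others were added later.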

Additional observations from a re-analysis of the deposited data

How the results depend on the processing

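On all 6 libraries, each of the 10 genes kept its direction and stayed above the threshold under 7 alternatives (DESeq2, RLE factors, upper-quartile factors, no filter on low counts, at least 10 counts in every library, counts divided by 2, and the replicate number as a block), with adjusted p-values from 0.47 to 0.939. Of these alternatives only DESeq2 and the fit without a filter called any gene at all, so the others say little about calls of the 10 genes. The block changed no call. Over the fits that left out 1 library, the number of the 10 genes called stayed at 0, while the log2 fold change went from -0.044 to 1.17 for VGLL1, whose sign turned without METTL3 replicate 1 (-0.026), vector replicate 2 (-0.036) or vector replicate 3 (-0.044), and from -0.25 to 0.044 for TEAD2. Without vector replicate 1 the log2 fold change shrank to 0.087 for YAP1, 0.022 for TEAD1, 0.11 for TEAD3, 0.0032 for LATS1, 0.069 for LATS2 and 0.021 for VGLL4, and grew to 1.17 for VGLL1, -0.50 for WWTR1 and -0.33 for TEAD4. Without METTL3 replicate 1 it was -0.019 for TEAD4 and -0.036 for WWTR1. The cause was not tested. VGLL4 turned to -0.051 in replicates 2 and 3 (-0.043 with DESeq2). The number of the 10 genes called was 2 in replicates 2 and 3 and 3 with DESeq2 there. Over all genes edgeR called 0, but 560 without a filter, 367 without vector replicate 1 (0 without any other library) and 3362 in replicates 2 and 3, and DESeq2 called 280 and, in replicates 2 and 3, 3233. Of the other Hippo genes, 3 were called with DESeq2, 5 without a filter, 12 in replicates 2 and 3, and 0 to 1 with a library left out. The joint test of replicate number called 7 genes, against 1130 with DESeq2 and 1482 without a filter, and 0 of the 10 genes against 2 and 2. Replicate 1 against the others, a comparison picked from these data, called 1997 genes and 3 of the 10. Replicates 2 and 3 against the rest called 0, with the shift of replicate 1 in their noise.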
